A study of Rattus norvegicus with 16 samples.

Results

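The 7 mitochondrially encoded subunit genes of respiratory complex I were examined in rat hearts after doxorubicin (DOX, an anthracycline used in chemotherapy) and after saline. They are Mt-nd1 (ENSRNOG00000030644), Mt-nd2 (ENSRNOG00000031033), Mt-nd3 (ENSRNOG00000033615), Mt-nd4 (ENSRNOG00000029707), Mt-nd4l (ENSRNOG00000031053), Mt-nd5 (ENSRNOG00000029971) and Mt-nd6 (ENSRNOG00000029042). They are set by gene identity and not by a threshold on any measured value, and are 7 of the 32545 genes listed. The choice was made with earlier results of these data known. All 7 had enough counts to be tested, among 13607 tested genes.

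RNAseq was performed on the hearts of 16 male Wistar rats, aged 6 to 8 weeks at the start, with 1 library per rat. The 6 DOX high rats had received DOX intravenously at 3 mg per kg in each of 5 weekly injections, which add up to 15 mg per kg. The 10 saline rats had received no DOX but weekly intravenous saline, 5 injections by the sample labels and 6 by the paper. Hearts were taken at week 6, and polyadenylated RNA was sequenced from about 30 mg of frozen tissue. Libraries are named here by group and animal number. Rats 5 to 10 were all saline rats, and rats 30 to 39 were 4 saline (34 to 37) and 6 DOX high rats. By the paper, animals were numbered in sequence whatever their treatment, and nothing is said of the gap between the number ranges.

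Complex I is the entry enzyme of the mitochondrial electron transport chain, which oxidises NADH, passes the electrons to ubiquinone and pumps protons across the inner membrane. Most of its subunits come from nuclear genes, but the hydrophobic core of its membrane arm is encoded by the mitochondrial DNA itself. These RNAs are cut from long transcripts of the heavy and the light strand of that DNA. Their levels therefore depend on cutting and RNA stability as well as on transcription. Since polyadenylated RNA was sequenced, the measured levels also depend on how far each RNA is polyadenylated, which was not examined. Mt-nd6 is the member that lies on the light strand, and Mt-nd4l and Mt-nd4 stay joined as a single messenger RNA. Heart muscle is densely packed with mitochondria, and in a piece of whole tissue fewer mitochondria or muscle cells cannot be told apart from less mitochondrial RNA in each.

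Between 13784896 and 18025615 fragments were counted per library, and each member had between 16278 and 385635 counts, so the spread between rats and not the counting error limited the precision. Some libraries stood apart. DOX high rat 32 had the highest TMM scaling factor (1.33, against 0.887 to 1.20 in the other libraries), and the 10 most abundant genes other than the members took 17.4% of its counts. Saline rat 6 followed, with a factor of 1.20 and 19.8%. Leaving saline rat 37 out raised the number of genes that differed between the groups from 851 to 1762. The fold changes and the summed share are therefore also given without rat 32 and, separately, without rat 6. The fold change of Mt-nd4 is also given without rat 37. Fragments were counted without regard to strand, and with the default settings a fragment that overlaps 2 genes or maps to several places is not counted. The counts of Mt-nd6 therefore cannot be told apart from those of RNA of the opposite strand, and the levels of the adjoining Mt-nd4l and Mt-nd4 are uncertain. The files list genes by identifier without symbols and 0 of the 32545 were found in the table of rat genes at hand, so tissue and cell type markers and nuclear subunits of the complex were not analysed here.

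Levels were compared between genes in TPM, which divides the count by the gene length. Mt-nd1, the subunit at the junction with the NADH-oxidising arm, where ubiquinone binds, was among the most abundant transcripts of the heart, with a mean of 24677 ± 4375 TPM (SD, n = 16) over all rats. Mt-nd2, the innermost of the proton-pumping subunits that resemble bacterial antiporters, stood at 24667 ± 5049 TPM (SD, n = 16). In order of mean TPM among all listed genes, these ranked 7 and 8.

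The 3 small subunits Mt-nd6, Mt-nd4l and Mt-nd3, which line the membrane arm near the ubiquinone site, had mean levels of 11865 ± 1876, 9646 ± 1913 and 7384 ± 1651 TPM (SD, n = 16). Mt-nd5, the large pumping subunit at the far tip of the arm, had 8657 ± 1508 TPM. Mt-nd4, the pumping subunit next to it, was the lowest of the 7 at 3259 ± 2569 TPM (SD, n = 16), although it shares its messenger RNA with Mt-nd4l. Its SD was close to its mean, whereas the SD of each of the other 6 was far below the mean.

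Neighbours in this order were compared within libraries by a two-sided exact sign-flip permutation test on the log2 TPM ratio, with p-values adjusted over the 6 pairs. The order that set these pairs came from the same 16 libraries, so the p-values set each step against the spread between rats and are not independent evidence of the order. Differences between genes in the selection of polyadenylated RNA or in counting can recur in every rat. The test cannot separate these from differences in RNA abundance. Mt-nd1 was above Mt-nd2 in 9 of 16 rats, and the levels of this pair could not be ordered (exact permutation test, adjusted p = 0.724). Mt-nd2 exceeded Mt-nd6 in 16 of 16 rats, by 1.04 ± 0.20 log2 units (adjusted p = 9.16e-05 by the exact permutation test, from the smallest p it can give, 3.05e-05). Mt-nd6 exceeded Mt-nd4l in 13 of 16 rats by 0.31 ± 0.30 log2 units (exact permutation test, adjusted p = 0.00146), and Mt-nd4l exceeded Mt-nd5 in 12 of 16 rats by 0.15 ± 0.17 log2 units (exact permutation test, adjusted p = 0.00146).

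The last steps of the order differed in size. Mt-nd5 exceeded Mt-nd3 in 11 of 16 rats, by 0.24 ± 0.34 log2 units (exact permutation test, adjusted p = 0.0179). Mt-nd3 exceeded Mt-nd4 in 16 of 16 rats, by 1.49 ± 0.72 log2 units (exact permutation test, adjusted p = 9.16e-05). By raw counts, which grow with gene length, the order was another one, and Mt-nd5, the longest of the genes, ranked 10 among all genes while Mt-nd3 ranked 45. The plot of TPM per rat shows the separation of the upper pair and the wide spread of Mt-nd4.

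**Figure D1:**
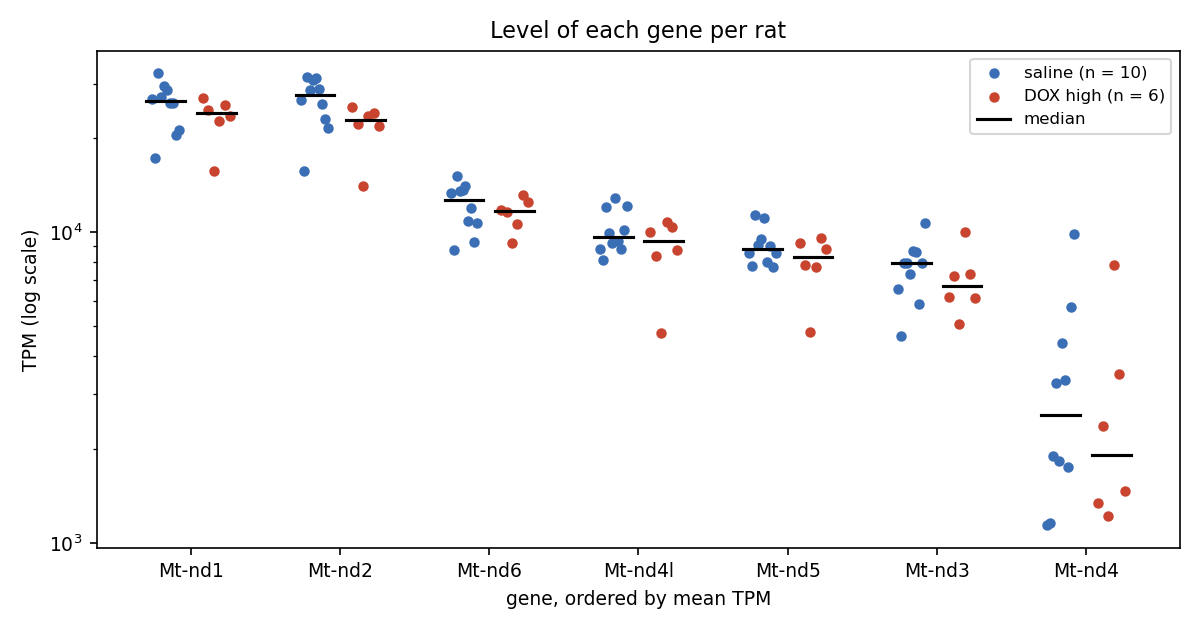
TPM of each of the 7 genes on a log scale, with 1 point per rat (blue, 10 saline; red, 6 DOX high) and a black line at the group median. Mt-nd1 and Mt-nd2 lie above the other 5 genes, and Mt-nd4 runs from 1139 TPM in saline rat 5 to 9857 TPM in saline rat 37.

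The members were then taken as a share of the library, that is, of all fragments counted on genes. Their summed share was lowest at 3.69%, with a median of 6.46% and a highest value of 7.83% in saline hearts, and lowest at 3.32%, with a median of 5.94% and a highest value of 6.45% in DOX high hearts. All 6 DOX high rats lay below the saline median, but 5 of the 6 lay within the saline range, and the exception was rat 32. The lowest saline share was that of rat 6, and the highest were those of rats 7 and 10, with 7.83% and 7.68%.

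The mean summed share was 6.35% ± 1.24 (SD, n = 10) in saline and 5.56% ± 1.17 (SD, n = 6) in DOX high hearts. The difference of -0.787 percentage points was smaller than the SD of either group, and it is given without a test because it sums genes chosen with earlier results known. Without rat 32 the DOX high mean was 6.01% ± 0.459 (SD, n = 5) and the difference was -0.338 points. Without saline rat 6 the difference widened to -1.08 points. Within rats 30 to 39 the saline mean was 5.91% ± 0.515 (SD, n = 4) and the difference was -0.350 points. That difference includes rat 32. Without that rat, the DOX high mean of 6.01% was above the saline mean of 5.91% in this range.

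The members' share was low where that of the 10 most abundant other genes was low. These genes were not matched to names, so whether other mitochondrially encoded genes are among them was not examined. Those 10 genes took 27.7% of counts on average in saline and 25.4% in DOX high hearts, and DOX high rat 32 and saline rat 6, with the lowest summed shares of the members, also had the lowest values of this measure. With these genes taken out of the denominator, the mean was 8.89% ± 2.09 (SD, n = 10) in saline and 7.54% ± 1.85 (SD, n = 6) in DOX high hearts. The difference was then -1.34 points. Both means were larger on this scale, so it is not directly comparable with the difference in share of all counts. As a share of summed TPM the difference was -1.10 points, from 9.43% ± 1.40 (SD, n = 10) to 8.33% ± 1.46 (SD, n = 6). The part of this library feature in the difference was not tested.

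**Figure D2:**
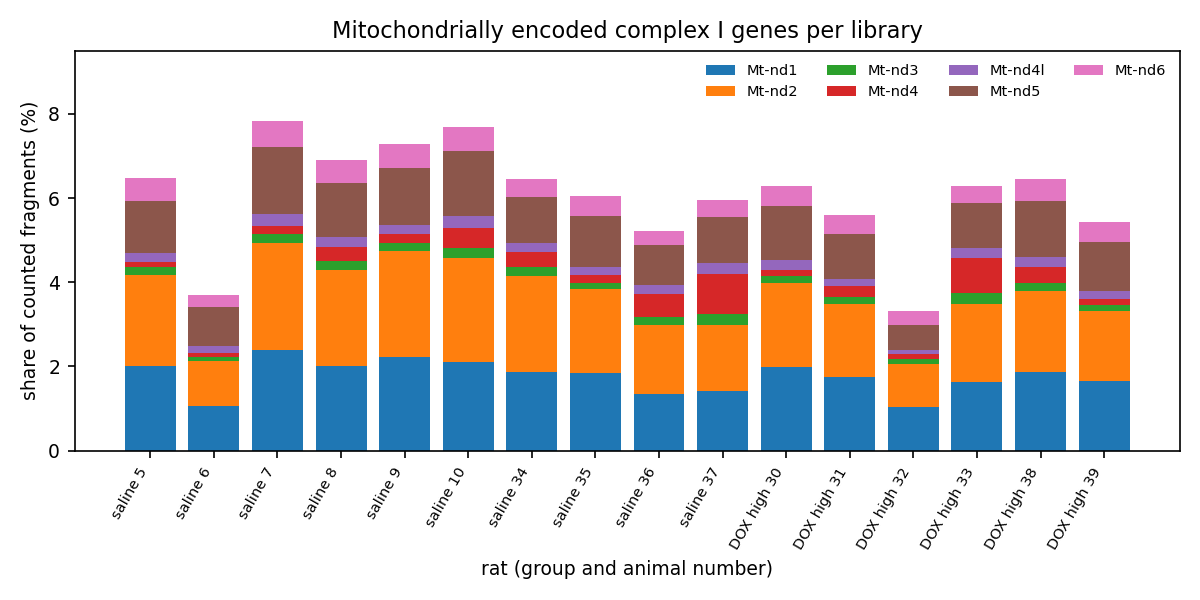
Share of all counted fragments taken by each of the 7 genes (stacked, in percent) in the 16 libraries, named by group and animal number. The bars run from 3.32% in DOX high rat 32 to 7.83% in saline rat 7, and Mt-nd1, Mt-nd2 and Mt-nd5 fill most of each bar.

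DOX high hearts were compared with saline hearts gene by gene with edgeR's quasi-likelihood test over all 13607 genes. None of the 7 members passed a Benjamini-Hochberg adjusted p of 0.05, where 851 genes, or 6.25% of those tested, did. The count of members was also 0 at an unadjusted p under 0.05, where 3313 of the 13607 genes were. It was 0 with DESeq2, which called 11.6% of all genes, and with limma on log2 TPM, which called 1.70% or 1.54% with a pseudocount of 1 or 0.1. The fitted fold change was negative for 7 of 7 members, with a median of -0.20 log2 units. Over all genes tested the median was -0.0047 log2 units and 50.6% of fold changes were negative. The 7 genes are measured in the same libraries and share the same scaling, so they are not independent of each other.

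Of the subunits around the ubiquinone site, Mt-nd1 took 1.06% of counts in the lowest, 1.94% in the median and 2.39% in the highest saline heart, and 1.04%, 1.70% and 1.98% in DOX high hearts. DOX high rat 32 was just below the lowest saline rat, rat 6, and the other 5 were inside the saline range. The fold change of Mt-nd1 was -0.20 log2 units (standard error 0.25, 95% interval -0.73 to 0.34, edgeR's quasi-likelihood test with Benjamini-Hochberg adjustment, adjusted p = 0.674).

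Mt-nd3, which carries the loop that moves when the enzyme switches between its active and resting forms, took 0.104%, 0.207% and 0.260% of counts in the lowest, median and highest saline hearts. In DOX high hearts the same values were 0.121%, 0.176% and 0.262%. Of the 6 DOX high hearts, 5 were below the saline median, and rat 33 was marginally above the highest saline heart, that of rat 37. The fold change was -0.17 log2 units (standard error 0.23, 95% interval -0.66 to 0.32, adjusted p = 0.700 from the edgeR test).

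Mt-nd6 is the light-strand gene, and its counts can include RNA of the opposite strand. Its share was 0.292%, 0.501% and 0.607% in the lowest, median and highest saline hearts and 0.331%, 0.457% and 0.522% in DOX high hearts. All 6 DOX high values were within the saline range, with rats 32 and 33 at the lower end. The fold change was -0.16 log2 units (standard error 0.23, 95% interval -0.63 to 0.32, adjusted p = 0.716 from the edgeR test).

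Mt-nd4l, the smallest of the subunits, took 0.156%, 0.213% and 0.292% in the lowest, median and highest saline hearts and 0.0969%, 0.208% and 0.242% in DOX high hearts. Rat 32 was clearly below every other rat, and the remaining 5 DOX high hearts were spread through the saline range, so that 3 of 6 were below the saline median. The fold change was -0.22 log2 units (standard error 0.23, 95% interval -0.71 to 0.27, adjusted p = 0.597 from the edgeR test).

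Of the pumping subunits, Mt-nd2 had the lowest fold change of the 7. It took 1.06%, 2.21% and 2.53% of counts in the lowest, median and highest saline hearts and 1.01%, 1.78% and 2.01% in DOX high hearts. All 6 DOX high rats were below the saline median and 5 of 6 were within the saline range, where saline rats 6, 36 and 37 were the low ones. The fold change was -0.33 log2 units (standard error 0.26, 95% interval -0.89 to 0.23, adjusted p = 0.475 from the edgeR test), and over 27 alternative fits its adjusted p did not fall below 0.271.

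Mt-nd5 took 0.919%, 1.23% and 1.61% of counts in the lowest, median and highest saline hearts and 0.601%, 1.12% and 1.34% in DOX high hearts. Rat 32 was again far below every other rat, and the other 5 DOX high hearts were inside the saline range. The fold change was -0.22 log2 units (standard error 0.23, 95% interval -0.72 to 0.27, adjusted p = 0.599 from the edgeR test).

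Mt-nd4 took 0.103%, 0.275% and 0.951% in the lowest, median and highest saline hearts and 0.116%, 0.195% and 0.817% in DOX high hearts. All 6 DOX high hearts were inside the saline range, and each group had a single rat far above its others, saline rat 37 and DOX high rat 33. The fold change was -0.16 log2 units (standard error 0.51, 95% interval -1.24 to 0.92, adjusted p = 0.879 from the edgeR test). Its interval spans more than that of any other member, and the direction turned with single rats. It was 0.13 without saline rat 37, 0.03 without DOX high rat 32 and -0.79 without DOX high rat 33, none past the threshold of the edgeR test.

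The fold changes moved towards 0 without DOX high rat 32, to between -0.18 (Mt-nd2) and 0.03 (Mt-nd4) log2 units. Without saline rat 6 they moved away from 0, to between -0.43 (Mt-nd2) and -0.24 (Mt-nd6) log2 units. Within rats 30 to 39 alone (6 DOX high, 4 saline), 4 of 7 fold changes were negative and their median was -0.11. There Mt-nd1 stood at 0.03 (95% interval -0.64 to 0.71), Mt-nd5 at 0.01 and Mt-nd6 at 0.14 (95% interval -0.38 to 0.66) log2 units, the opposite direction to that over all rats. Mt-nd2 stood at -0.13 (95% interval -0.82 to 0.56) and Mt-nd4 at -0.66 (95% interval -2.05 to 0.73) log2 units. In this smaller comparison the edgeR test called 0 of all 13730 genes, with 1891 at an unadjusted p under 0.05. With the number range as a covariate over all 16 rats, 0 members passed, beside 0.0143% of all genes tested, and without saline rat 37 and DOX high rat 32, a choice made after seeing the data, 0 members passed beside 13.2%.

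**Figure D3:**
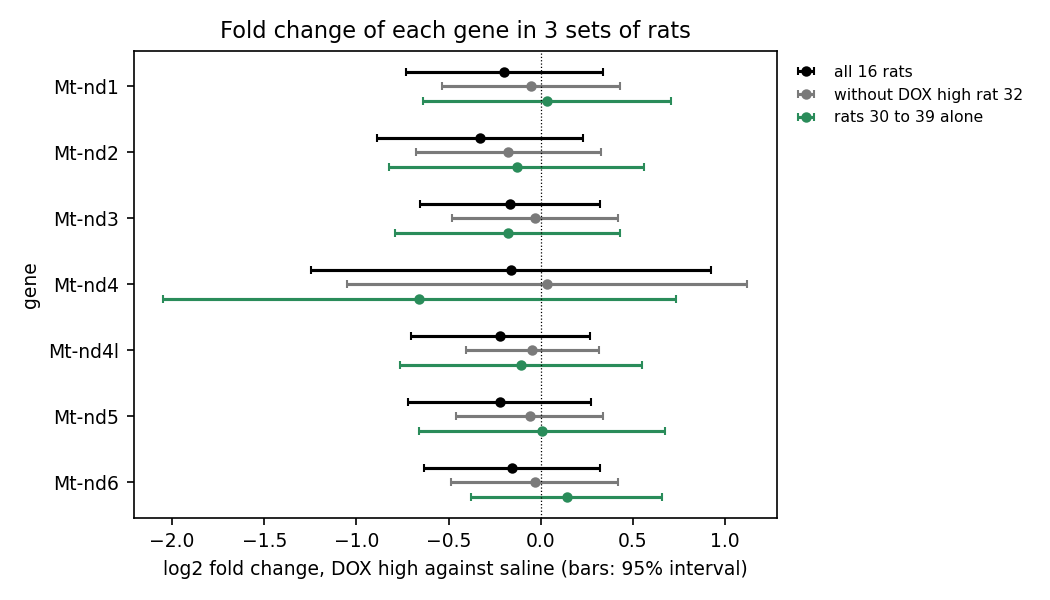
Log2 fold change of each gene in DOX high against saline hearts with its 95% interval from edgeR, for all 16 rats (black), without DOX high rat 32 (grey) and for rats 30 to 39 alone (green). Each interval holds 0, and that of Mt-nd4 is the widest in each set of rats.

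The spread within the saline group was examined over the same number ranges, rats 34 to 37 against rats 5 to 10. Mt-nd1, Mt-nd2, Mt-nd5 and Mt-nd6 were lower in rats 34 to 37 by fitted values of -0.38, -0.33, -0.37 and -0.47 log2 units, and Mt-nd4l stood at -0.19. For Mt-nd1, Mt-nd5 and Mt-nd6 these fitted differences within saline animals were larger than those between DOX high and saline hearts. None of the 7 passed the edgeR test (adjusted p = 0.918 for each of these 5, 4 against 6 rats), and none had an unadjusted p under 0.05. Over all genes the same edgeR test called 0 of 13413, with 593 at an unadjusted p under 0.05. DESeq2 called 0 members and 0.164% of all genes.

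Mt-nd4 went the other way, with 2279 ± 1285 TPM (SD, n = 6) in saline rats 5 to 10 and 5176 ± 3528 TPM (SD, n = 4) in rats 34 to 37. The fitted difference was 0.94 log2 units (standard error 0.51, 95% interval -0.19 to 2.08, adjusted p = 0.918 from the edgeR test) and was 0.44 without rat 37. Mt-nd3 stood at 0.01 log2 units, and at -0.11 without rat 37.

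The widest differences between rats of the same group were those of Mt-nd4. In saline hearts it had 1139 TPM in rat 5, 1160 in rat 6, 1904 in rat 7, 3256 in rat 8, 1835 in rat 9 and 4381 in rat 10. In the later-numbered saline rats it had 3339 TPM in rat 34, 1754 in rat 35, 5755 in rat 36 and 9857 in rat 37. In DOX high hearts it had 1346 TPM in rat 30, 2368 in rat 31, 1218 in rat 32, 7850 in rat 33, 3505 in rat 38 and 1471 in rat 39. Low and high hearts occurred in both groups, with values in between. Each group had a gap below its highest rat, from 5755 to 9857 TPM in saline and from 3505 to 7850 TPM in DOX high hearts.

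As a share of counts, the highest Mt-nd4 value was 9.22 times the lowest in saline and 7.04 times the lowest in DOX high hearts. After TMM scaling its coefficient of variation was 69.6% in saline, where 6.49% of tested genes varied more, and 92.0% in DOX high hearts, where 3.81% did. The other 6 members varied by 23.0% to 30.6% in saline and by 22.5% to 34.2% in DOX high hearts, against a median over all tested genes of 20.2% and 18.7%. Among the 100 most abundant genes, Mt-nd4 had rank 9 by this measure in saline and rank 1 in DOX high hearts. Within the 7 genes' own counts, its part ran from 1.91% in saline rat 5 to 16.0% in saline rat 37.

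Over all rats together, the members did not vary as a single block. Relations between log2 TPM values were computed for the 21 pairs over 16 libraries, with p-values by permutation adjusted over the pairs, and all pairs share the library and its scaling. Mt-nd1 and Mt-nd2 moved together, with r = 0.950 and rho = 0.935 (permutation test, adjusted p = 7.0e-05 for each). The correlation was 0.859 without the most distant rats, DOX high rat 32 and saline rat 6, and it was 0.956 in saline, 0.971 in DOX high hearts and 0.902 within rats 30 to 39. Mt-nd1 and Mt-nd6, genes on opposite strands, had r = 0.907 and rho = 0.906 (permutation test, adjusted p = 7.0e-05 for each), and 0.876 without these rats. Fragments were counted without regard to strand, so this relation cannot be read as one between RNA of opposite strands.

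Mt-nd3 moved with Mt-nd4, with r = 0.878 and rho = 0.891 (permutation test, adjusted p = 7.0e-05 for each). It was 0.843 without saline rats 6 and 37, 0.834 in saline and 0.957 in DOX high hearts, and 0.944 within rats 30 to 39. Mt-nd1 and Mt-nd4 showed no such relation over all rats, with r = 0.024 and rho = -0.032 (permutation test, adjusted p = 0.932 for r). Once DOX high rat 32 and saline rat 6 were left out, r was -0.583. The number ranges differed, with r = 0.471 within rats 5 to 10 and r = -0.033 within rats 30 to 39. For Mt-nd1 and Mt-nd3, r was 0.910 within rats 5 to 10 and 0.171 within rats 30 to 39. Mt-nd4l and Mt-nd4, which share a messenger RNA, had r = 0.598 and rho = 0.762 (permutation test, adjusted p = 0.0195 for r), or 0.540 without the most distant pair of rats. The relation of Mt-nd1 with Mt-nd4l (r = 0.634, permutation test, adjusted p = 0.0198) rested on DOX high rat 32 and saline rat 6, since r was 0.093 without them.

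**Figure D4:**
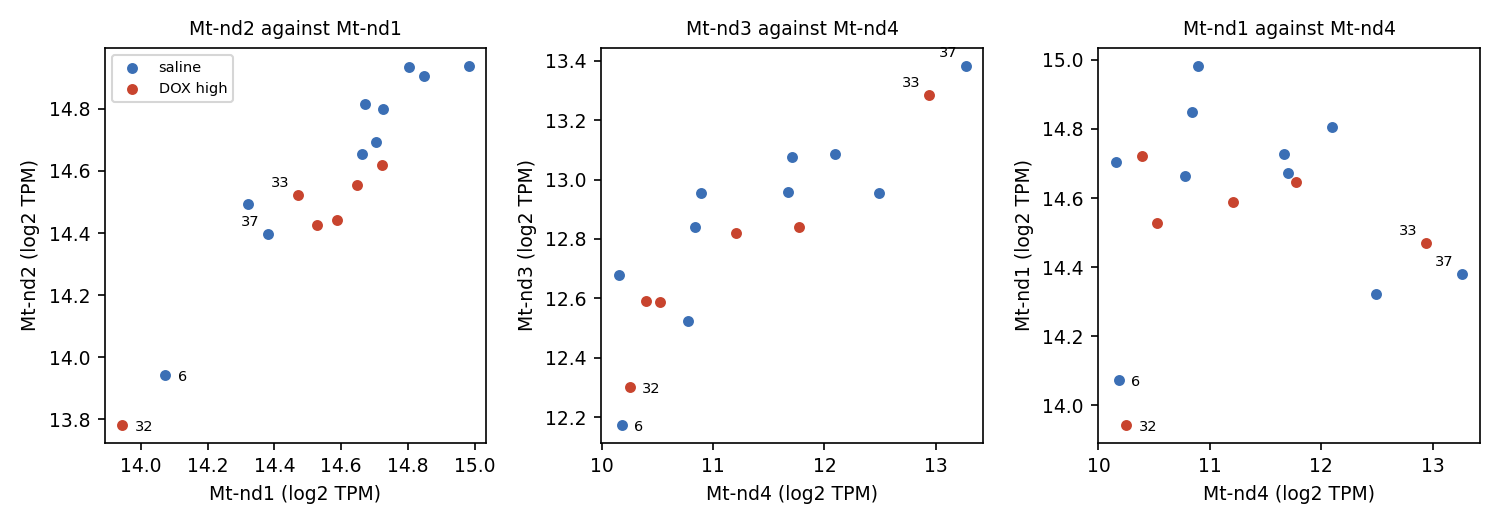
Levels of pairs of genes in log2 TPM, 1 point per rat (blue, saline; red, DOX high), with rats 6, 32, 33 and 37 numbered. Over all rats, Mt-nd2 follows Mt-nd1 (r = 0.950) and Mt-nd3 follows Mt-nd4 (r = 0.878). Mt-nd1 and Mt-nd4 show no common course over all rats (r = 0.024).

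Ratios within a library do not depend on its scaling. 3 were compared between the groups by a two-sided exact permutation test over all splits of the rats into groups of these sizes, with adjustment over the 3. These ratios too were chosen with earlier results of these data known. The ratio of Mt-nd6 to Mt-nd5, neighbours on opposite strands, was 0.41 ± 0.14 log2 units (SD, n = 10) in saline and 0.55 ± 0.21 (SD, n = 6) in DOX high hearts. It was above the saline median in 5 of 6 DOX high hearts, a difference of 0.14 log2 units (exact permutation test, p = 0.137, adjusted p = 0.411). Within rats 30 to 39 the difference was 0.19 (exact permutation test, p = 0.0952, adjusted p = 0.286), and without DOX high rat 32, the rat with the highest ratio, it was 0.06 log2 units. Since fragments were counted without regard to strand, this ratio cannot be read as that of light-strand to heavy-strand RNA.

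The ratio of Mt-nd5 to Mt-nd1, genes far from and near to the start of heavy-strand transcription, was -1.48 ± 0.17 (SD, n = 10) in saline and -1.56 ± 0.12 (SD, n = 6) log2 units in DOX high hearts, a difference of -0.07 (exact permutation test, p = 0.381, adjusted p = 0.571). The difference was -0.07 within rats 30 to 39 as well.

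The ratio of Mt-nd4l to Mt-nd4 was 1.88 ± 0.88 (SD, n = 10) in saline and 1.88 ± 0.85 (SD, n = 6) log2 units in DOX high hearts, with a difference of -0.01 (exact permutation test, p = 0.986). It ranged from 0.30 in rat 37 to 2.95 in rat 5 among saline hearts and from 0.46 in rat 33 to 2.89 in rat 30 among DOX high hearts. Within rats 30 to 39 the difference was 0.64 (exact permutation test, p = 0.276, adjusted p = 0.414). Counted fragments of this pair thus stood at very different proportions from rat to rat in both groups.

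**Figure D5:**
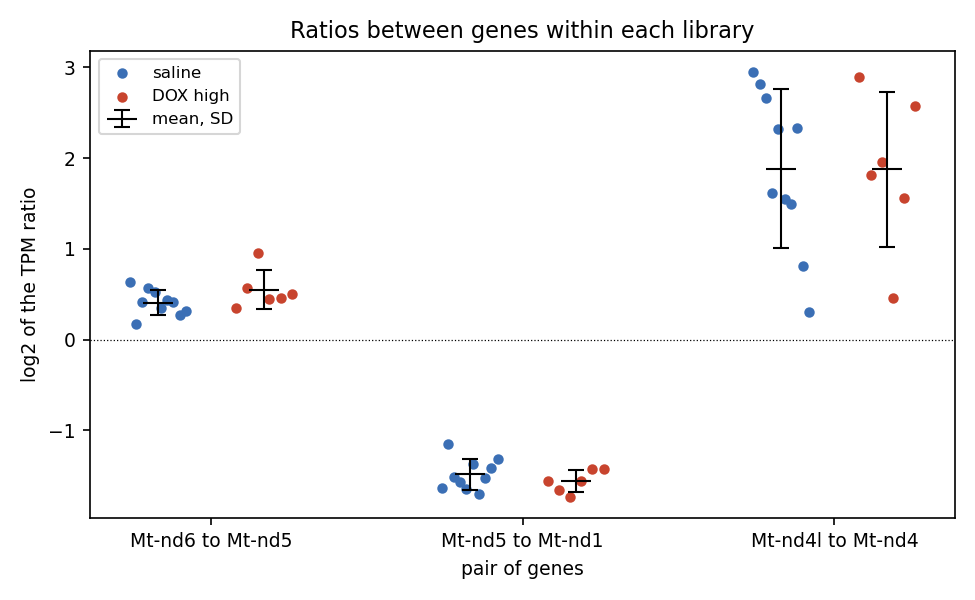
Log2 of the TPM ratio for 3 pairs of genes, 1 point per rat (blue, saline; red, DOX high) with the group mean and SD in black. The groups overlap in each ratio, and the ratio of Mt-nd4l to Mt-nd4 runs from 0.30 to 2.95 log2 units among saline hearts.

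The genes whose level across the 16 libraries was most like the members' summed level, on TMM-scaled log2 CPM among the 8536 genes whose mean on that scale reached 3, are given by identifier. This scale differs from TPM, on which the pairs of members were compared. ENSRNOG00000033299 had r = 0.975 and rho = 0.968 with the sum, and r = 0.935 without the most distant pair of rats. On log2 TPM, a scale added after seeing the data, the same values were 0.911, 0.735 and 0.754. Its mean level was 29313 TPM, and its fold change in DOX high hearts was -0.18 log2 units (standard error 0.23, edgeR adjusted p = 0.671). ENSRNOG00000030700 had r = 0.972 and rho = 0.965 (0.912 and 0.829 on log2 TPM), a mean level of 57280 TPM and a fold change of -0.14 log2 units (standard error 0.25, edgeR adjusted p = 0.769). Both were more abundant than any member, and neither differed detectably between the groups.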

How the data were processed

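The authors sequenced polyadenylated, strand-specific libraries of heart RNA (10 saline, 6 DOX high rats) with paired reads of 75 bp. Hisat2 2.0.4 was used by them for alignment to Rnor_6.0, and featureCounts of subread 1.5.0, at its default settings that ignore strand, for counting on the exons of Ensembl release 81. The deposited counts are raw, in whole fragments for each gene, and the deposited TPM values were obtained by the authors with in-house scripts in R 3.1.0. In the files, TPM is the count divided by a gene length and scaled to the same sum in every library.

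Each library is 1 rat, grouped by the sample labels. No pair of libraries of 1 group agreed within sampling noise (over 60 pairs, chi-square divided by its degrees of freedom was at least 14.0). Counts were filtered by filterByExpr, scaled by TMM and tested with edgeR 4.0.16 (glmQLFit, glmQLFTest, R 4.3.3) without covariates. Adjusted p-values are Benjamini-Hochberg over all genes tested, with a threshold of 0.05. Standard errors derive from the F statistic. Gene lengths relative to each other were taken from the ratio of count to TPM. Ratios and correlations between members used log2 TPM in Python 3.11.15 with scipy 1.17.1. The steps were tested on simulated data.

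The members, lists and tests were chosen with earlier results of these data known. By rule, the 7 members are named, with the genes most like their sum by Pearson r on TMM-scaled log2 CPM (prior count of 2), 2 of them by identifier. Alternatives were DESeq2 1.42.0, limma 3.58.1 on log2 TPM with a pseudocount of 1 or 0.1, upper-quartile and library-total scaling, the filter dropped or set to 10 counts in each library, the members left out of the scaling, rats 30 to 39 alone, the number range as a covariate, a threshold of 0.01, and leaving out every rat once. For 242 genes DESeq2 returned no adjusted p.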

Additional observations from a re-analysis of the deposited data

Results flagged for a closer look

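Each member's share of counts, the summed share and the ratios were checked in each group for a rat far from the others by Dixon's criterion. Of 22 groups of values, 7 had such a rat, where chance gives 1.1 for independent values with a normal distribution. The shares were checked on a linear scale and the ratios on log2, and the flags depend on that choice of scale. DOX high rat 32 was the lowest of its group for Mt-nd1 (1.04% of counts), Mt-nd2 (1.01%), Mt-nd5 (0.601%) and the sum of the 7 genes (3.32%), and the highest for the log2 ratio of Mt-nd6 to Mt-nd5 (0.96). These values come from 1 library and are not independent of each other. For Mt-nd4, saline rat 37 was the highest of its group at 0.951% of counts and DOX high rat 33 of its group at 0.817%.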

How the results depend on the processing

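No member passed the adjusted p of 0.05 in any of the 27 alternative fits. Of their 189 member fold changes, 179 kept the direction over all rats and 10 did not. In the comparison of rats 30 to 39, and in that with the number range as a covariate, Mt-nd1 turned to 0.0346 and 0.0399, Mt-nd5 to 0.0065 and 0.0119, and Mt-nd6 to 0.1395 and 0.1448 log2 units. Without saline rat 37 and DOX high rat 32, a choice made after seeing the data, Mt-nd3 turned to 0.0065 and Mt-nd4 to 0.3215. Leaving out each rat in turn gave ranges of -0.2859 to -0.0516 for Mt-nd1, -0.4251 to -0.1762 for Mt-nd2, -0.3262 to -0.0301 for Mt-nd3, -0.7853 to 0.1298 for Mt-nd4, -0.3053 to -0.0465 for Mt-nd4l, -0.3058 to -0.0612 for Mt-nd5 and -0.2378 to -0.0335 for Mt-nd6. The difference in summed share ran from -1.08 to -0.338 percentage points in this way, was -0.747 without Mt-nd4 and -0.383 without rats 37 and 32. The ratio of Mt-nd4l to Mt-nd4 ran from -0.2113 to 0.2754 and was 0.6414 within rats 30 to 39, that of Mt-nd5 to Mt-nd1 from -0.1001 to -0.0358 and that of Mt-nd6 to Mt-nd5 from 0.0574 to 0.1791. Within saline hearts, Mt-nd3 turned from 0.0089 to -0.1078 without rat 37.

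The number of genes called among all genes was 851, and 1574 with DESeq2, 231 and 210 with limma on log2(TPM + 1) and log2(TPM + 0.1), 0 within rats 30 to 39, 2 with the number range as a covariate, 110 at an adjusted p under 0.01, 1788 without rats 37 and 32, and between 345 (DOX high rat 38 left out) and 1762 (saline rat 37 left out) over the fits without a single rat. Leaving out saline rats 7, 8, 34 or 36 or DOX high rats 33, 38 or 39 lowered it to between 345 and 524. The cause was not tested. Higher genes made up 64.2% of the 851, and 52.5% of those called by DESeq2. No paired analysis was possible because no animal number occurs in both groups. Pathway and marker lists were not tested under any setting, as identifiers could not be matched to symbols.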

Other observations

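The values here were looked at after the data had been seen and are descriptions without a test. The level of Mt-nd2 relative to Mt-nd1, the most tightly linked pair, was 0.04 ± 0.09 log2 units (SD, n = 10) in saline and -0.09 ± 0.08 (SD, n = 6) in DOX high hearts. It ran from -0.13 to 0.17 in saline and from -0.16 to 0.05 in DOX high hearts, so the groups overlapped. DOX high rat 33 was the highest of its group and saline rat 6 the lowest of its group. The groups overlapped through these rats. The ranges of the others, from -0.16 to -0.09 in DOX high and from -0.04 to 0.17 in saline hearts, are therefore apart by that choice of rats. They are no evidence of a difference between the groups.

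The listed gene whose level was most like that of Mt-nd4, among 6898 genes with a mean of over 8 TPM, was ENSRNOG00000029389, a short gene of 3.72% of the length of Mt-nd5, with r = 0.926 and rho = 0.901 over 16 libraries on log2(TPM + 1). On this scale the next gene had r = 0.679. By the rule used for the members' sum, on TMM-scaled log2 CPM over 8536 genes, another gene came first. That was ENSRNOG00000018623, with r = 0.717. ENSRNOG00000029389 had 135 counts in saline rat 37 and 131 in DOX high rat 33, the rats with the highest Mt-nd4. It had 55 in saline rat 36 and 29 in DOX high rat 31, and 0 in 6 libraries. Without the most distant pair of rats r was 0.878. The files do not pair this identifier with a name.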
